A study of Mus musculus with 8 samples.

Results

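The 10 genes described here belong to the tripartite motif (TRIM) family and act in antiviral defence or close to it. They are *Trim5*, *Trim12a*, *Trim12c*, *Trim14*, *Trim24*, *Trim25*, *Trim30a*, *Trim30d*, *Trim34a* and *Trim56*, followed in cultured mouse microglia. They were taken by their GENCODE symbols from a table of 55385 genes, and all 10 were found and passed the filter on low counts. Microglia were shaken off mixed cultures of neocortex and hippocampus from newborn wild-type mice and replated. They were either left untreated (control, 4 cultures) or given IgG at 10 µg/ml for 24 h from day in vitro (DIV) 15 (IgG, 4 cultures). The labels give each IgG culture the same date as 1 control culture, without saying what the date refers to, and these dates define pairs 1 to 4. The study asked how IgG alters the transcriptome of microglia. Cells from different brains were pooled before culture, so a replicate is a culture and not an animal. In bulk RNA, fewer cells of a type and less RNA per cell cannot be told apart.

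TRIM proteins typically carry a RING domain, B-boxes and a coiled coil, and most act as E3 ubiquitin ligases. *Trim25* ubiquitinates the RNA sensor RIG-I, which then signals through MAVS, and *Trim14* and *Trim56* act on antiviral sensing at MAVS and STING. *Trim5*, *Trim12a* and *Trim12c* are the mouse relatives of human TRIM5, which binds incoming retroviral capsids, and *Trim30a* restrains NF-κB signalling. *Trim24* is a nuclear co-regulator of the retinoic acid receptor, and its loss in mouse liver releases interferon signalling. Many TRIM genes are themselves induced by interferon, through the interferon-stimulated response element (ISRE) in their promoters, which transcription factors activated by interferon bind.

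Of the 10 genes, 6 lie on chromosome 7, in a cluster of 11 *Trim* genes within 1 Mb of *Trim30a*. In mm10 coordinates, *Trim34a* (ENSMUSG00000056144) spans chr7:104244457-104262234 on the plus strand. The others are read from the minus strand, *Trim5* (ENSMUSG00000060441) at chr7:104263386-104288094, *Trim12a* (ENSMUSG00000066258) at chr7:104299894-104315466, *Trim12c* (ENSMUSG00000057143) at chr7:104338754-104353362, *Trim30a* (ENSMUSG00000030921) at chr7:104409025-104465193 and *Trim30d* (ENSMUSG00000057596) at chr7:104470014-104507849. The remaining 4 genes lie apart. *Trim14* (ENSMUSG00000039853) is at chr4:46493781-46536141 on the minus strand and *Trim56* (ENSMUSG00000043279) at chr5:137105644-137116209 on the minus strand. *Trim24* (ENSMUSG00000029833) is at chr6:37870811-37966296 on the plus strand and *Trim25* (ENSMUSG00000000275) at chr11:88999376-89020293 on the plus strand.

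The letters of the ISRE were found in the promoters of the 6 chromosome 7 genes. The motif searched was GAAA, then any 2 bases, then GAAA, on both strands, in RefSeq promoters (GRCm38.p6, the same build as mm10) that run from 250 bases before to 50 bases after the start. It was present in 1131 of 32851 promoters, or 3.44%. Of the 10 genes, 9 had a promoter in the RefSeq table used, and 6 of these held a match, all 6 being the chromosome 7 genes. Counted by entry, as for the share of all promoters, 7 of their 11 held one. *Trim24*, *Trim25* and *Trim56* held none in this window. The gamma-activated site, TTC, then any 3 bases, then GAA, was present in 2726 promoters (8.30%) and in none of the 9. The 6 genes share the letters of the motif, and the 30-base window around each match is shown. Each is written 5′ to 3′ on the gene's own strand, with the match in capitals. The match reads on the opposite strand in every case, so it appears as TTTC, 2 bases, TTTC.
Trim30a, chr7:104465210-104465239, minus strand: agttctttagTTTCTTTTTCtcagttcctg
Trim30d, chr7:104507871-104507900, minus strand: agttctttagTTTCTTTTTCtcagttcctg
Trim5, chr7:104288136-104288165, minus strand: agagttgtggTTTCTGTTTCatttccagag
Trim12a, chr7:104315466-104315495, minus strand: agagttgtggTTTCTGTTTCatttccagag
Trim12c, chr7:104353359-104353388, minus strand: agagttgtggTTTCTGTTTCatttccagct
Trim34a, chr7:104244457-104244486, plus strand: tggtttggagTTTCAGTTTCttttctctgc
The *Trim30a* and *Trim30d* windows were identical in 30 of 30 bases, as were those of *Trim5* and *Trim12a*, and the *Trim5* and *Trim12c* windows shared 28 of 30. *Trim12c* and *Trim30a* shared 14 of 30. The match began 36 bases before the start in *Trim30a*, 41 in *Trim30d*, 49 in *Trim5* and 29 in *Trim12c*. A further *Trim30a* entry in the table held a match that began 3 bases into its transcript. In *Trim12a* and *Trim34a* it began 11 bases into the transcript. A match is a run of letters only, and binding was not measured.

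Within subgroups of these genes, the likeness of the promoters went beyond the motif. The 100 bases before the start are given for the genes with the highest mean level in each of 2 subgroups, *Trim30a* with its neighbour *Trim30d*, and *Trim12c* with its near copy *Trim5*, with the ISRE match in capitals.
Trim30a, chr7:104465194-104465293, minus strand: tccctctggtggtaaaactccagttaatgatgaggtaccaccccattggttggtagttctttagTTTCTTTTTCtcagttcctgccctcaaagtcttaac
Trim30d, chr7:104507850-104507949, minus strand: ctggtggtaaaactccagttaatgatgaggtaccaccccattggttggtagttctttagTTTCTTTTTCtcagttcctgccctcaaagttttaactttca
Trim12c, chr7:104353350-104353449, minus strand: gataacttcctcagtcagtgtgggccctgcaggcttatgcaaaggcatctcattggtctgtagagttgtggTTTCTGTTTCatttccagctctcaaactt
Trim5, chr7:104288107-104288206, minus strand: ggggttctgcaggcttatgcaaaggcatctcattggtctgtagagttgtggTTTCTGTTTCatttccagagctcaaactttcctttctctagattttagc
Slid by 5 bases, the *Trim30a* and *Trim30d* sequences matched in 94 of 95 overlapping bases. *Trim5* and *Trim12c* matched in 75 of 80 when slid by 20 bases. The best ungapped match of *Trim12c* with *Trim30a* was 39 of 93 bases. *Trim34a* matched *Trim5* in 36 of 95 and *Trim30a* in 33 of 95. For comparison, *Trim24* and *Trim25*, which lie outside the cluster, matched in 37 of 89.

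The libraries held 21287816 to 23703216 counts, so 3 counts, taken as the floor, correspond to between 0.124 and 0.147 CPM (counts scaled to the library total, adjusted by TMM). Mitochondrial genes took 2.32% to 2.41% of the counts in the controls, 4.85% and 5.59% in the IgG libraries of pairs 1 and 3, and 2.21% and 1.97% in those of pairs 2 and 4. Of 10 microglial marker genes, all were above the filter and 1, *Aif1*, rose with IgG (log2 fold change 0.69, adjusted p = 0.0331). Their summed level was 7873 to 8636 CPM in the controls and 8475 to 9457 CPM with IgG. No marker of border-associated macrophages, astrocytes, oligodendrocyte lineage cells, neurons, fibroblasts or endothelium was called among those above the filter, which left 3 of 5 macrophage, 3 of 5 fibroblast and 2 of 3 endothelial markers and all of the other lists. The summed levels, controls first, were 56.7 to 81.9 and 51.5 to 108 CPM for 5 macrophage markers, 111 to 124 and 106 to 119 CPM for 6 astrocyte markers, and 1059 to 1656 and 891 to 1561 CPM for 7 oligodendrocyte lineage markers. They were 34.6 to 55.7 and 32.0 to 44.8 CPM for 5 neuronal markers and below 6 CPM in every library for fibroblasts and endothelium, with *Cldn5* at 0.

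Levels of different genes were compared per kilobase of exon (RPKM, mean ± SD, n = 4 controls). *Trim30a* was highest at 38.8 ± 7.74, followed by *Trim25* at 25.2 ± 3.74. *Trim30a* exceeded *Trim25*, and *Trim25* exceeded *Trim14*, in all 8 libraries. The next 5 genes formed a middle group, *Trim14* (10.3 ± 1.38), *Trim12c* (8.88 ± 4.44), *Trim56* (7.97 ± 0.457), *Trim30d* (6.06 ± 2.03) and *Trim34a* (4.74 ± 1.08). In it, the ranges of mean ± SD of neighbours in this order overlapped. *Trim14* was above *Trim12c*, *Trim12c* above *Trim56*, and *Trim56* above *Trim30d* in only 5 of 8 libraries each. *Trim30d* was above *Trim34a* in 7 of 8. *Trim24* (1.83 ± 0.122) and *Trim5* (1.17 ± 0.258) were lower, each above the next gene in all 8 libraries. *Trim12a* was lowest at 0.159 ± 0.0941, with 8 to 38 counts per library. In the IgG libraries *Trim30a* reached 59.5 ± 22.6 and *Trim25* 28.4 ± 5.60, and *Trim30d* stood at 10.0 ± 3.03 beside *Trim14* at 10.9 ± 2.28.

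None of the 10 genes passed an adjusted p of 0.05 in the comparison of IgG with control (edgeR's quasi-likelihood test with the pairs as a block, Benjamini-Hochberg over 17537 genes), where 0.393% of all genes tested did so, all 69 of them higher with IgG. At an unadjusted p under 0.05 there were 3, *Trim30d*, *Trim30a* and *Trim12c*, all higher with IgG, against 6.35% of all genes in that direction. Other tools differed. DESeq2 and the likelihood ratio test each called 2, *Trim30a* and *Trim30d*, where they called 1.38% and 1.86% of all genes. Limma-voom called 0 of the 10 and 0.502% of all genes. By the study's criterion, an unadjusted p under 0.01 with a log2 fold change beyond 0.5 in either direction, 2 of 10 genes passed, again *Trim30a* and *Trim30d*, against 1.82% of all genes. Without the pairs in the fit, 0 of 10 met that criterion, against 0.844% of all genes, and neither these 10 nor any other gene had an adjusted p under 0.05 (0% of genes). At an unadjusted p under 0.05 that fit had 2 of the 10 higher with IgG, against 4.83% of all genes. The fitted log2 fold change was above 0 for 8 of the 10 genes, with a median of 0.13 against -0.01 over all genes. The median of the changes within each pair was 0.18, 0.25, 0.21 and -0.01 in pairs 1 to 4. The genes *Trim30a*, *Trim30d* and *Trim25* (3 of 10) were higher with IgG in 4 of 4 pairs, which 10.4% of all genes were. In none of the 10 did every IgG library exceed every control library, which 2.6% of all genes did.

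**Figure D1:**
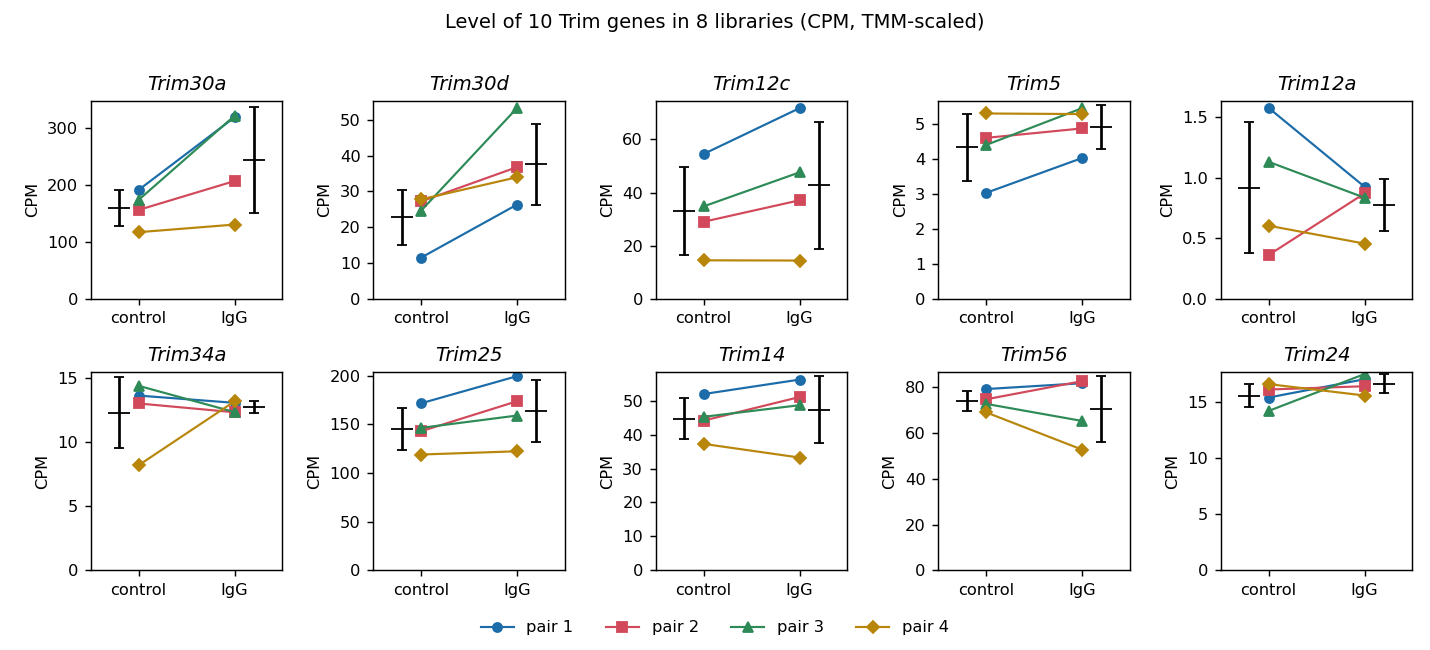
Level of each gene in CPM (linear axis from 0) in the control and IgG libraries, with a line for each pair and the mean ± SD of 4 libraries beside each group. *Trim30a* and *Trim30d* are higher with IgG on all 4 lines, with the widest gaps in pairs 1 and 3, and both libraries of pair 4 are lowest for *Trim12c*.

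*Trim30a* had the highest mean level of the 10 in each group. Its levels were 191.4, 156.2, 173.9 and 117.1 CPM in controls 1 to 4 and 319.2, 207.0, 321.8 and 130.5 CPM in the IgG libraries of the same pairs. Every IgG library stood above its own control, but the IgG library of pair 4 was lower than the controls of the other 3 pairs, so the groups overlapped. The change within pairs was 0.74, 0.41, 0.89 and 0.16 on the log2 scale. The fitted log2 fold change was 0.55 ± 0.13 (SE, fold 1.46, adjusted p = 0.197), and without the pairs 0.62 ± 0.27 (adjusted p = 0.692). It differed most in the pairs whose IgG library had a high mitochondrial share. With pairs 2 and 4 alone, an alternative chosen after seeing the data, the log2 fold change was 0.28 (adjusted p = 0.598). The summed markers of border-associated macrophages went from 79.2 to 108 and from 81.9 to 106 CPM in pairs 1 and 3, and from 75.9 to 81.6 and from 56.7 to 51.5 CPM in pairs 2 and 4. Those of the oligodendrocyte lineage went from 1059 to 891 and from 1093 to 902 CPM in pairs 1 and 3, and from 1656 to 1561 and from 1474 to 1432 CPM in pairs 2 and 4. The part of the mitochondrial share and of these markers in the results for *Trim30a* and *Trim30d* was not tested.

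*Trim30d*, a close relative of *Trim30a*, stood at 11.5, 27.2, 24.6 and 27.8 CPM in controls 1 to 4 and at 26.3, 36.8, 53.3 and 34.0 CPM with IgG. Control 1 was far below the other controls, and the IgG library of its pair was below 2 of the 4 controls. Within pairs the change was 1.19, 0.43, 1.11 and 0.29, in the same split of pairs 1 and 3 against pairs 2 and 4 as for *Trim30a*. The fitted log2 fold change was 0.75 ± 0.17 (SE, fold 1.69, adjusted p = 0.161). Without the pairs it was 0.72 ± 0.28 (adjusted p = 0.692), and with pairs 2 and 4 alone 0.36 (adjusted p = 0.343). The coding sequences of *Trim30a* and *Trim30d* were 90.0% identical, and 4.41% and 4.57% of their 100-base transcript windows occurred in the other gene. The sum of the 2 genes differed by 0.77, 0.41, 0.92 and 0.18 in pairs 1 to 4.

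The chromosome 7 genes are poor in GC. The GC content of the longest annotated transcript was 40.8% in *Trim30a* and 39.5% in *Trim30d*, against a median of 49.7% over the genes tested. The other 4 lay between 39.1% and 44.3%. Across 17503 genes, which are not independent replicates, the change within a pair correlated with GC content at a Spearman rho of -0.38 and -0.39 in pairs 1 and 3, -0.031 in pair 2 and 0.31 in pair 4. When length and GC content were corrected in the fit with the pairs, the log2 fold change was 0.47 for *Trim30a* (adjusted p = 0.0347) and 0.66 for *Trim30d* (adjusted p = 0.0321), with 1.21% of all genes called in that fit.

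**Figure D2:**
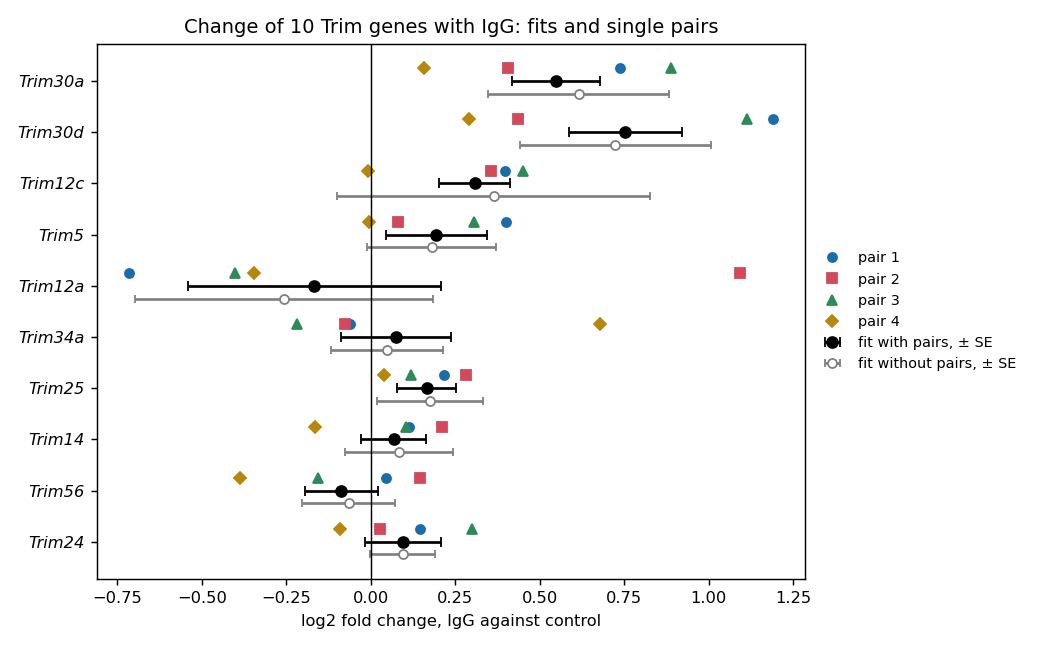
Log2 fold change of IgG against control for each gene, from the fit with pairs (filled black, ± SE), the fit without pairs (open grey, ± SE) and each pair alone (coloured). The pair changes of *Trim30a* and *Trim30d* all lie above 0, and those of *Trim12a* run from -0.72 to 1.09.

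The level of *Trim12c* ranged widely between pairs. It was 54.5, 29.0, 34.8 and 14.5 CPM in controls 1 to 4, a 3.77-fold range, and 71.8, 37.1, 47.6 and 14.4 CPM with IgG. The order of the pairs was the same in both groups, pair 1 highest and pair 4 lowest. IgG was higher in pairs 1 to 3, by 0.40, 0.35 and 0.45 on the log2 scale, and level in pair 4 (-0.01). The fitted log2 fold change was 0.31 ± 0.11 (SE, adjusted p = 0.407). A test of the 4 dates in the same fit, added after seeing the data, gave an adjusted p of 0.00518. *Trim12c* was the one gene of the 10 called between dates, where 0.975% of all genes were. Without pair 2 that adjusted p was 0.0572. An snRNA gene, *Gm27995*, shares 100 bases with its exons on the same strand and held 66, 33, 38 and 10 counts in controls 1 to 4.

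*Trim5*, whose coding sequence was 96.6% identical to that of *Trim12c*, did not share this order. Its levels were 3.03, 4.60, 4.40 and 5.30 CPM in the controls and 4.02, 4.87, 5.45 and 5.28 CPM with IgG, with pair 1 lowest in both groups. The log2 fold change was 0.19 ± 0.15 (adjusted p = 0.652). *Trim12a*, the third of these near copies, has a shorter annotated coding sequence, of 891 bases against 1491 in *Trim5* and *Trim12c*. Its identity to *Trim5* was 97.1% over the aligned bases and 58.0% over the whole alignment. *Trim12a* had 38, 8, 27 and 14 counts in the controls and 20, 20, 17 and 10 with IgG. Its log2 fold change of -0.17 ± 0.37 (adjusted p = 0.883) rested on pairs that went in opposite directions, and became 0.091 without pair 1. Shared 100-base windows made up 11.7% of the *Trim5* transcripts, 8.05% of those of *Trim12c* and 3.29% of those of *Trim12a*. The sum of the 3 genes, which does not depend on how reads are split among them, differed by 0.38, 0.33, 0.42 and -0.02 in pairs 1 to 4.

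*Trim34a* was close to level in 3 pairs. It stood at 13.6, 13.0, 14.4 and 8.18 CPM in the controls and at 13.0, 12.3, 12.3 and 13.2 CPM with IgG. It was slightly lower with IgG in pairs 1 to 3 (-0.06, -0.08 and -0.22) and higher in pair 4 (0.68), where the control was low. Its log2 fold change was 0.07 ± 0.16 (adjusted p = 0.881), and turned to -0.14 without pair 4 and to -0.025 with scaling by total counts alone. Counts of this gene are uncertain, since 39.0% of its 100-base windows also occurred in *Trim34b* (coding identity 97.6%) or in *Gm47248*. *Gm47248* is an antisense gene that covers 609 of its 2592 exon bases and held 54 counts in control 4 and 108 in the IgG library of that pair. The summed level of *Trim34a* and *Trim34b* differed by -0.02, -0.02, -0.06 and 0.58 in pairs 1 to 4.

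The other 5 *Trim* genes of the cluster were *Trim6*, *Trim34b*, *Trim30b*, *Trim30c* and the pseudogene *Trim30e-ps1*, and none passed the adjusted threshold. *Trim30c* met the study's criterion (log2 fold change 0.70 ± 0.19, adjusted p = 0.289), with 106, 71, 77 and 15 counts in the controls and 128, 147, 126 and 16 with IgG. It was low in both libraries of pair 4, as *Trim12c* was, and was likewise called between dates (adjusted p = 0.0149). *Trim30b* (0.46, adjusted p = 0.581), *Trim30e-ps1* (0.42, adjusted p = 0.532) and *Trim34b* (0.15, adjusted p = 0.668) were fitted above 0 and *Trim6* below (-0.28, adjusted p = 0.681). RefSeq promoters were found for 4 of these 5 genes, and 0 held the ISRE letters. The promoter of *Trim30c*, whose fitted change was close to that of *Trim30d*, was among the 4 and held the letters of the gamma-activated site, beginning 62 bases before the start. The whole cluster summed to 299.3, 251.0, 273.6 and 185.6 CPM in controls 1 to 4 and to 461.0, 324.5, 467.7 and 213.3 CPM with IgG. The mean change within pairs was 0.49 ± 0.26 (SD, n = 4 pairs), and 0.38 when *Trim30a* was left out. *Trim30a* supplied between 61.2% and 69.2% of the cluster's counts.

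**Figure D3:**
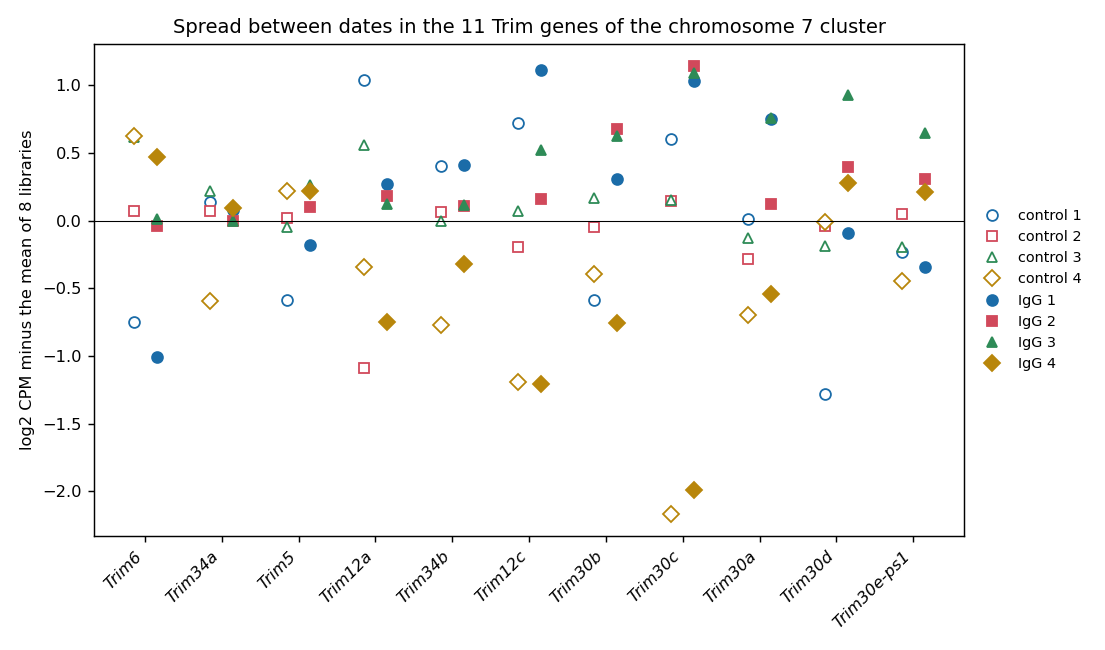
Log2 CPM of the 11 cluster genes in 8 libraries, each gene centred on its own mean, with open symbols for controls, filled symbols for IgG and 1 colour per labelled date. Both libraries of pair 4 lie lowest for *Trim12c* and *Trim30c*, whereas control 1 lies lowest for *Trim30d* and *Trim5*.

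Among the 4 of the 10 genes that lie outside the cluster, *Trim25*, the RIG-I ligase, had the highest mean level. It stood at 171.5, 142.8, 146.3 and 118.9 CPM in the controls and at 199.4, 173.6, 158.9 and 122.3 CPM with IgG. Each IgG library was above its control, by 0.22, 0.28, 0.12 and 0.04, and the groups overlapped. The log2 fold change was 0.16 ± 0.09 (SE, adjusted p = 0.546). None of its 100-base windows occurred in another gene.

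*Trim14*, an adaptor at MAVS, stood at 51.9, 44.1, 45.2 and 37.3 CPM in the controls and at 56.2, 51.0, 48.6 and 33.2 CPM with IgG. It was higher in pairs 1 to 3 and lower in pair 4 (-0.16), and its log2 fold change was 0.07 ± 0.10 (adjusted p = 0.812), or -0.033 with scaling by total counts alone. Of its 4338 exon bases, 1356 overlap *Nans* on the opposite strand, and the strand setting of the counting was not given in the sources used here. *Nans* held between 1278 and 1328 counts in the controls and between 981 and 1410 with IgG.

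*Trim56*, which acts on STING signalling, stood at 79.2, 74.7, 72.7 and 69.0 CPM in the controls and at 81.7, 82.7, 65.3 and 52.8 CPM with IgG. It was higher with IgG in pairs 1 and 2 and lower in pairs 3 and 4, and its log2 fold change was -0.09 ± 0.11 (adjusted p = 0.777). With a pair left out, this ranged from -0.17 (without pair 2) to -0.0041 (without pair 4). *Trim24*, the co-regulator of the retinoic acid receptor, stayed between 14.2 and 17.5 CPM, with 15.4, 16.1, 14.2 and 16.6 CPM in the controls and 17.0, 16.4, 17.5 and 15.6 CPM with IgG. Its log2 fold change was 0.09 ± 0.11 (adjusted p = 0.763), or -0.0055 with scaling by total counts alone and -0.032 with pairs 2 and 4 alone. Over the 4 genes outside the cluster the median change was 0.08, and over the 6 inside it 0.25, on the log2 scale. This difference was not tested.

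The order of the controls was compared after the values were seen. Of the 10 genes, 4 (*Trim30a*, *Trim12c*, *Trim25* and *Trim14*) were highest in control 1, then in controls 3, 2 and 4, an order that 8.17% of all genes tested and 20 of the 41 partner genes described further on had. *Trim30d* and *Trim5* had the reverse order, as 7.95% of all genes did, and the other 4 had neither. The order is a description of these 4 libraries, in which genes are not independent. The sensor *Ddx58* (95.6, 66.9, 79.9 and 43.5 CPM in controls 1 to 4) and the transcription factor *Irf7* (178.6, 103.4, 153.3 and 55.5 CPM) were among the 20.

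The rest of the family was set beside these genes. Of 62 other TRIM genes, including *Pml*, *Mid1* and *Mid2*, 40 passed the filter and 7 had no counts in any library. None was called by edgeR's quasi-likelihood test with the pairs. At an unadjusted p under 0.05, 3 of 40 were higher and 2 lower with IgG, against 6.35% and 3.85% of all genes. DESeq2 and limma-voom called 0, and the likelihood ratio test called 1 of 40 and 1.86% of all genes. *Trim30c* alone met the study's criterion. Their median log2 fold change was 0.00, with a range from -0.45 (*Trim46*) to 0.70 (*Trim30c*), and of the 40 tested 7 were higher and 6 lower in all 4 pairs, against 10.4% and 8.47% of all genes.

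The pathways in which the 10 genes act were represented by 41 partner genes, all of which passed the filter. Of these, 2 were called, both higher with IgG, and 6 met the study's criterion, against 0.393% and 1.82% of all genes. *Irf7*, the transcription factor that amplifies type I interferon, rose by 1.13 ± 0.09 (SE, adjusted p = 0.00593), and *Dhx58*, which encodes the RNA sensor LGP2, rose by 0.60 ± 0.09 (adjusted p = 0.0381). Without the pairs in the fit, neither was called. Partners called, with all genes called in brackets, were 0 (0) without pair 2, 1 (14) without pair 1 and 1 (16) without pair 3. They were 7 (182) without pair 4 and 7 (233) with DESeq2. A further 4 genes met the study's criterion alone, among them *Ddx58*, which encodes RIG-I, the substrate of *Trim25* (0.74 ± 0.13, adjusted p = 0.0653), the sensor *Ifih1* (0.63, adjusted p = 0.0735) and the ISG15 conjugating enzyme *Ube2l6* (0.53, adjusted p = 0.0596). *Ddx58* stood at 190.8, 101.5, 159.7 and 54.7 CPM with IgG. *Mavs*, the adaptor below RIG-I, was at 0.19 ± 0.09 (adjusted p = 0.510).

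By role, edgeR's quasi-likelihood test with the pairs called 1 of 5 sensors and 1 of 8 transcription factors. None of the 13 adaptors and kinases, the 8 *Trim25* co-factors and ubiquitin genes, the 4 interferon receptors or the 3 partners of *Trim24* and *Trim28* was called in that fit. The last list includes *Trim28* itself, and its TRIM genes are also counted among the other TRIM genes. DESeq2 and the likelihood ratio test each called 3 sensors, 3 transcription factors and 1 of the 8 co-factors. The median log2 fold change was 0.60 for the sensors, 0.18 for the adaptors and kinases, 0.21 for the co-factors, 0.14 for the transcription factors, 0.12 for the receptors and 0.05 for the partners of *Trim24* and *Trim28*. It was 0.17 over all 41, with 17 of 41 higher in all 4 pairs (10.4% of all genes) and 0 lower (8.47% of all genes). *Trim30d* (0.75) and *Trim30a* (0.55) had fitted changes near those of *Ddx58* (0.74) and *Ifih1* (0.63), while the lowest of the 5 sensors was at 0.13. *Trim25* (0.16) and *Trim14* (0.07) were nearer to *Mavs* (0.19), and *Trim56* was below 0 (-0.09). Differences between these genes were not tested.

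**Figure D4:**
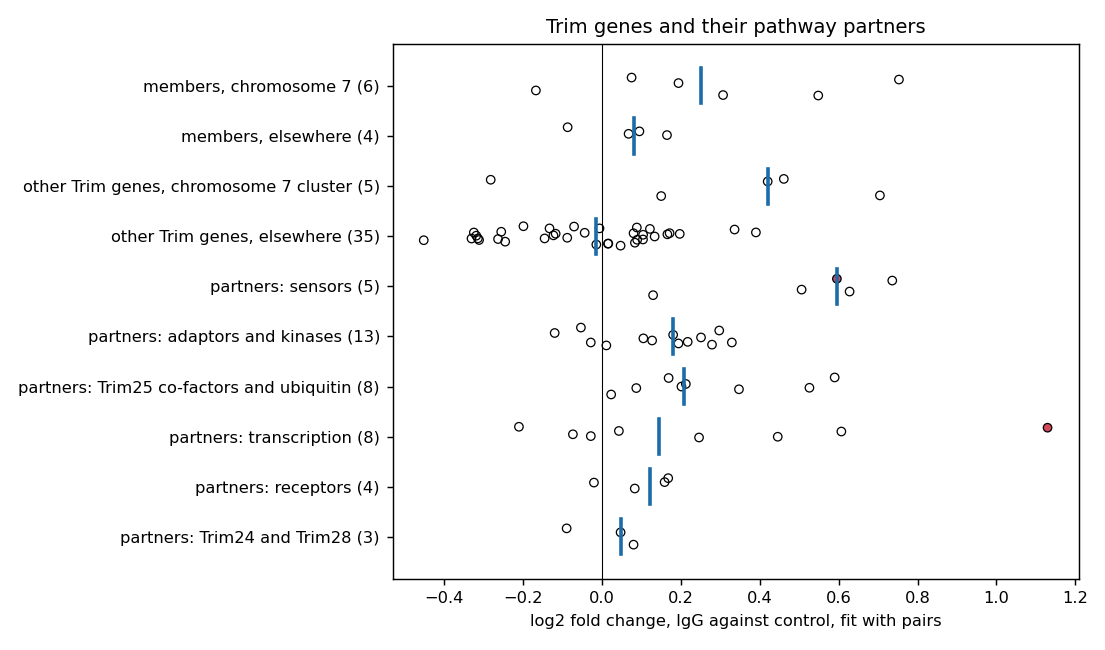
Fitted log2 fold change of IgG against control (fit with pairs) for the 10 genes, the 40 other TRIM genes tested and the 41 partners by role, with the number of genes in brackets. Each circle is a gene, filled where its adjusted p was below 0.05, and each bar is a median. The 2 filled circles are *Irf7* and *Dhx58*.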

How the data were processed

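Poly-A RNA of 8 microglial cultures (4 control, 4 IgG) was sequenced. The values are raw read counts per Ensembl gene that the authors deposited. Per the methods and the submitters' processing notes, reads with adapters, unread bases or mostly low quality were removed, and the rest were aligned to mm10 (GRCm38), with HISAT2 2.2.1, SAMtools 1.12, Picard 2.26.3 and featureCounts named. The annotation version and the strand and multi-mapping settings were not given in the sources used here, so genes that overlap or are near copies can gain or lose reads. The labels call the controls untreated, while the methods describe a vehicle.

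Symbols, coordinates and exon lengths came from GENCODE M21, which held 55144 of 55385 identifiers. Genes were filtered with filterByExpr (17537 kept), scaled by TMM and fitted with edgeR 4.0.16 (R 4.3.3, quasi-likelihood), with the date in the labels as a block, which they do not define further. p-values were adjusted by Benjamini-Hochberg over all genes tested, with a threshold of 0.05. The standard error is the log2 fold change divided by the root of F. Changes within pairs used log2 CPM with a prior count of 2. The pairing rests on the dates in the labels. Deviations from the group means correlated at 0.345, 0.269, 0.215 and 0.280 for cultures of the same number and between -0.297 and 0.164 for others. No 2 libraries of a group agreed within sampling noise (chi-square per degree of freedom at least 5.00), so none was merged as a repeat deposit. That they are separate cultures rests on the labels. In the fit with pairs, the p-values rest on the spread left after differences between dates are taken out. In the fit without pairs, they rest on the spread between cultures of a group. Counting intervals and floors cover counting error only.

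The genes, partner list and markers were chosen with earlier results of these data known. Named were all 10 genes, the cluster's other *Trim* genes, other TRIM genes and partners that were called or met the study's criterion (the 4 largest), and *Ddx58*, *Mavs* and *Irf7*. An item that this rule would name is not reported here. *Aif1*, *Trim46*, *Nans*, *Gm47248* and *Gm27995* were named after their values were seen. Sequences came from RefSeq (GRCm38.p6), matched by symbol. Identity between genes was computed from coding sequences of GENCODE M21 aligned with Biopython 1.88, in place of a planned comparison of proteins, which was not run. Alternatives were DESeq2 1.42.0, limma-voom (limma 3.58.1), the likelihood ratio test, other scalings and filters, a correction for length and GC content, no block, and leaving out each pair.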

Additional observations from a re-analysis of the deposited data

How the results depend on the processing

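No gene of the 10 was called in the main comparison. The likelihood ratio test, DESeq2, a filter of at least 1 count, and the length and GC correction each called 2, *Trim30a* and *Trim30d*. In the same order, they called 327, 233, 376 and 213 of all genes. Leaving out each pair gave 0 to 2, with 2 without pair 4, and the other settings gave 0. Over all genes, 14, 0, 16 and 182 were called without pairs 1 to 4. The study's criterion, met by 2, was met by 0 without the block and with pairs 2 and 4 only. It was met by 1 with total counts alone and with the length and GC correction, and by 1 to 2 with a pair left out. Of all genes, 148, 327, 312 and 339 met it in the first 4 of these settings. Without pairs 1 to 4, 215, 326, 216 and 762 of all genes did. Over all alternatives the log2 fold change ranged from 0.28 to 0.66 for *Trim30a* (adjusted p from 0.00575 to 0.812) and from 0.36 to 0.89 for *Trim30d* (from 0.000914 to 0.692). The median of the 10 stayed between 0.03 and 0.17, and the cluster's summed change between 0.29 and 0.57. *Trim12a* ranged from -0.55 to 0.091 with a pair left out (0.091 without pair 1), turned to 0.44 with pairs 2 and 4 only, and was not tested with at least 10 counts in every library. *Trim24* turned to -0.0055, *Trim14* to -0.033 and *Trim34a* to -0.025 with total counts alone, which moved the median of all genes to -0.11. *Trim24* was at -0.032 with pairs 2 and 4 only, and *Trim34a* ranged from -0.14 (without pair 4) to 0.18 with a pair left out. Of 139 values of single genes under 14 alternatives, 122 kept their direction and side of the threshold, 10 passed it and 7 changed sign.

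Between dates, 1 gene was called, against 4 with the likelihood ratio test (5.38% of all genes), 3 with at least 1 count (2.84%), 3 with length and GC correction (2.18%), 2 with pairs 2 and 4 only (1.39%), and 0 to 1 with a pair left out (0 without pair 2, where 0.0342% of all genes were called). Of the other TRIM genes, 1 was called with the likelihood ratio test (327 of all genes). With no block, DESeq2 (350 of all genes), total counts alone or pairs 2 and 4 only, 0 met the study's criterion. With a pair left out, 0 to 1 met it. Of the partners, with all genes called in brackets, 0 were called without the block (0), 7 with the likelihood ratio test (327) and 7 with DESeq2 (233). There were 1 with total counts alone (37), 8 with at least 1 count (376) and 8 with length and GC correction (213). Leaving out a pair gave 0 to 7, with 0 without pair 2 (0) and 7 without pair 4 (182). The number of partners under the study's criterion fell from 6 to 1 without the block and to 3 with pairs 2 and 4 only. Of all genes, 320, 148 and 327 met it.

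Over all genes, 69 calls became 0 without the block (lowest adjusted p 0.0771, 1230 genes at an unadjusted p under 0.05), 327 with the likelihood ratio test, 233 with DESeq2, 37 with total counts alone, 376 with at least 1 count, 213 with length and GC correction, 14, 0, 16 and 182 without pairs 1 to 4 and 190 with pairs 2 and 4 only. The study's criterion went from 320 genes to 148 without the block, 528 with the likelihood ratio test, 648 with at least 1 count and 762 without pair 4. The cause was not tested. Depth limits *Trim12a*, with 8 to 38 counts per library.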
